A study of Mus musculus with 40 samples.

Results

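Untreated mouse embryonic fibroblasts from 5 embryos fell into a high and a low interferon state, and the levels of all genes in the 2 cultures of the high state are described here against the 3 of the low state. The cultures were chosen by the measured values of a single gene, Isg15, a ubiquitin-like protein that interferon induces strongly. A culture counted as high when Isg15 reached at least 100 counts per 1000000 counts of its RNA-Seq library (CPM). The Het culture (550.3 CPM) was the nearest above this threshold, and the KO culture of embryo 3, called KO3, was at 602. The KO culture of embryo 1, KO1, was the nearest below at 3.12, with KO2 at 1.81 and WT at 1.20. Each state held KO embryos, so neither state belonged to 1 genotype. The labels name no batch, and the interferon state and any unlabelled batch cannot be told apart. As Isg15 was measured in the same libraries as all other genes, differences between the untreated states are given as a description without a test. Tests were made only among the doxorubicin libraries, which played no part in the choice, and between treated and control libraries within embryos.

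Embryos of 13.5 days post coitum gave the cells and differed in Sall2, a transcription factor with zinc fingers, as WT, Het or KO on the background Mixed C57BL/6J-129P2OlaHsd, and cells were used at passage 3. There were 1 WT, 1 Het and 3 KO embryos, each grown without treatment and with 1 μM doxorubicin, a drug that traps topoisomerases on DNA and breaks it, for 16 h. Each library was sequenced in 4 FASTQ files, which the labels list as 40 samples, and the table of counts per gene has 10 columns. Of the untreated cultures, the high state thus held 1 Het and 1 KO culture and the low state 1 WT and 2 KO cultures, with 1 library each and no repeat of any culture.

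Sall2 had 756 counts in WT, 587 in Het, 388 in KO1, 432 in KO2 and 424 in KO3. After scaling for library size and composition (TMM), as in all CPM from here on, these were 35.8, 23.9, 19.2, 23.2 and 18.8 CPM. The WT library was the highest, and the ranges of the high and the low state overlapped. Counts cover the whole gene and not the deleted piece alone, so they are no check of the genotype. The total was 24122414 counts in WT, 23713186 in KO1 and 21592313 in KO2 against 19520477 in Het and 18236276 in KO3, so both high libraries were smaller than the 3 low ones. Despite this they held at least 10 counts for more genes, 14598 in Het and 14186 in KO3 against 13116, 13194 and 12976 in WT, KO1 and KO2. A floor of 3 counts corresponded to between 0.122 and 0.161 CPM, which covers counting error only.

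The doxorubicin columns of KO2 and KO3 hold the same count for every one of the 24062 genes and were taken as 1 library, so 9 distinct libraries remain. The labels thus give that library to an embryo of each state, and it is called the library labelled KO2 and KO3. It held 4163 counts of Xist, the RNA that coats the inactive X chromosome, and 0 of the Y-linked genes Uty, Kdm5d, Eif2s3y and Ddx3y. Sex-linked genes did not separate the untreated states: Xist had 5913, 3 and 5997 counts in WT, KO1 and KO2 and 33029 in Het and 31 in KO3. The Y-linked genes together had 1, 3806 and 1 against 3 and 6397, so each state held a culture of either kind. In these genes the library labelled KO2 and KO3 was like the untreated KO2 culture and unlike that of KO3.

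As fibroblasts, all 5 cultures expressed the matrix and surface genes that define the cell type. The fibronectin gene Fn1 had 921042, 691741 and 653422 counts in WT, KO1 and KO2 and 216016 in Het and 139241 in KO3. Thy1, a surface glycoprotein, had 10501, 14632 and 9725 counts in the low libraries and 2327 and 2615 in the high ones. Pdgfra, a growth factor receptor of mesenchymal cells, had 732, 825 and 1034 counts against 122 and 291. The label of the cells therefore holds in both states, at lower marker levels in the high state, as described further on.

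Interferons are secreted proteins that warn cells of viruses and of nucleic acids in the wrong place. Type I interferons bind the receptor chains Ifnar1 and Ifnar2, whose kinases Jak1 and Tyk2 phosphorylate Stat proteins such as Stat2; with Irf9 these enter the nucleus and switch on genes through the interferon-stimulated response element. The products degrade or block viral RNA, present antigens and attract immune cells, and several of them, such as Irf7 and sensors, strengthen the response, while Usp18 and the Socs proteins damp it.

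Of the 24062 genes, 14258 reached 10 counts in at least 2 of the 5 untreated libraries, and 805 of them did so only through the high libraries. Levels were compared as log2 CPM after TMM scaling with a prior count of 2, and a gene is called higher or lower here when both high libraries lay on the same side of all 3 low libraries and the means differed by at least 1, which is 2-fold. By this measure 2947 genes were higher in the high state (20.7%), 1671 were lower (11.7%) and 9640 were neither. Without the genes of the interferon list, 2788 of 14051 were higher (19.8%) and 1670 lower (11.9%), so most genes that set the states apart lay outside the pathway that names them. Where at least 1 low library held 10 counts, 2205 of 13453 genes were higher and 1671 lower, since a gene counted only in the high libraries can hardly be anything but higher. The median difference was 0.04 over all genes and 0.03 without the interferon list. Scaled to column totals instead, the median of all genes moved to 0.57, with 4792 genes higher and 598 lower, and the higher genes made up 88.9% of the genes apart in place of 63.8%. All differences below are therefore relative to the typical gene, and for the lists whose calls moved most the counts with column totals are given too.

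In counts over all genes, libraries of the same state differed less than libraries of different states, which does not hold for every kind of gene, as the sex-linked genes above and the glial markers below show. Between Het and KO3, 728 of 14258 genes differed 2-fold, and the Pearson correlation of their log2 CPM was 0.977, over genes that depend on each other within a library. Within the low state, 447 genes differed 2-fold between WT and KO2, 722 between KO1 and KO2 and 733 between WT and KO1. Across the states the number lay between 4552 (WT and Het) and 5231 (KO1 and KO3). The WT and KO2 cultures, of different genotype, were thus closer to each other than KO2 and KO3, where 4813 genes differed 2-fold. Among KO embryos alone, with KO3 against KO1 and KO2, 3084 genes were higher and 1881 lower. These share 3 libraries with the whole comparison: 2756 of the higher genes were common to both (93.5% of the whole comparison's and 89.4% of the KO embryos') and 1519 of the lower (90.9% and 80.8%).

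**Figure D1:**
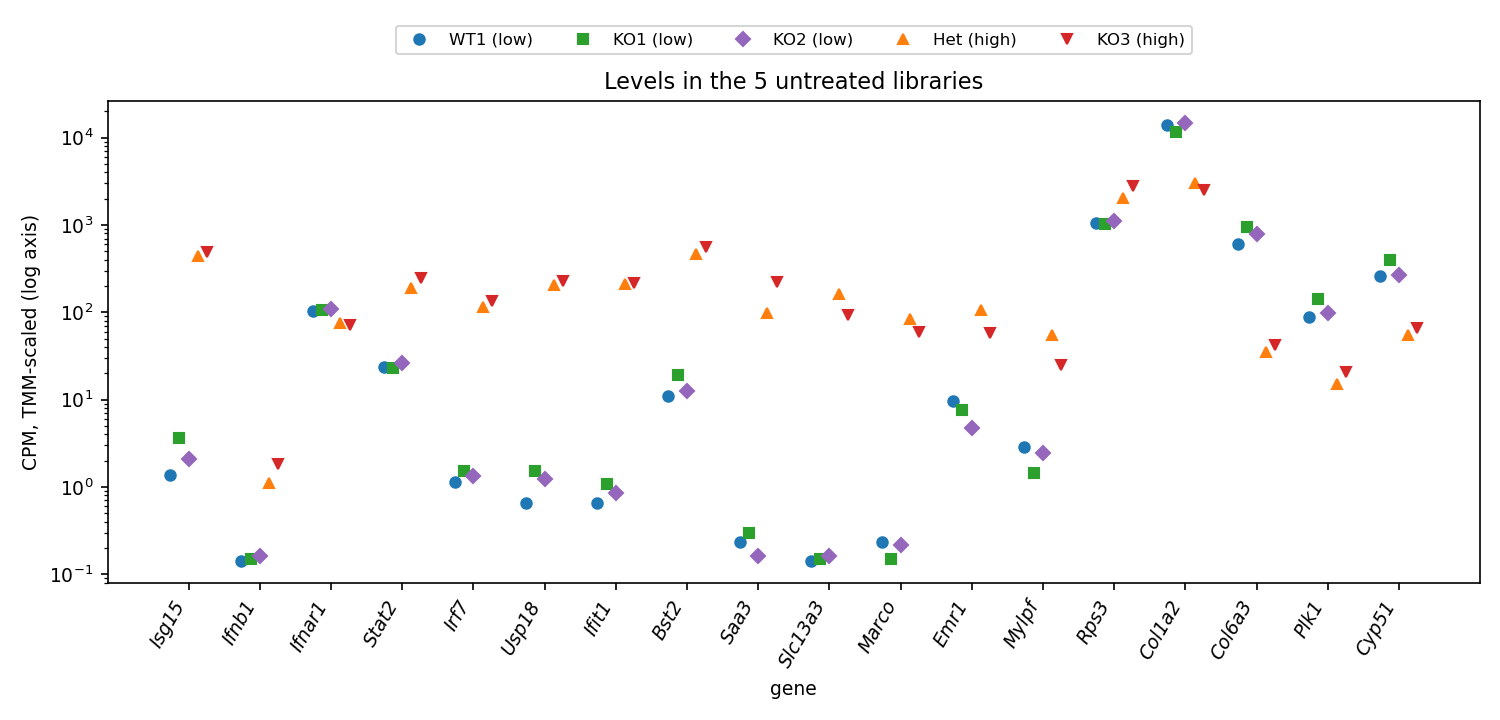
Scaled CPM (log axis) of 18 genes in each of the 5 untreated libraries, with 1 point per library and values under the floor of 3 counts drawn at that floor. Het and KO3 lie above WT, KO1 and KO2 for Isg15 and Saa3 and below them for Col1a2, Col6a3, Plk1 and Cyp51, and Ifnar1 differs by less than 2-fold.

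The interferon list held 288 genes, of which 282 are in the table, 207 had enough counts and 75 did not. Of those with enough counts, 159 were higher in the high state, 1 was lower and 47 were neither, where 20.7% of all genes were higher, and with column totals 178 were higher. As 46 of the 207 had enough counts only in the high libraries, and Isg15 itself chose the groups, nothing is read from this share. Without those 46, 113 of 161 were higher, with a median of 2.06. The median difference of the list was 2.75, or 2.53 with the 24 genes at or under 3 counts in every low library set to that floor. Summed over the list, the level was 4381, 4464 and 4368 CPM in WT, KO1 and KO2, 11869.5 in Het and 13018 in KO3. Each low library lay near the others, and both high libraries lay well above them.

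Of the interferons themselves, 21 genes, only Ifnb1 had enough counts. Ifnb1, the interferon that fibroblasts release first, had 0 counts in WT, KO1 and KO2, 27 in Het and 41 in KO3. It was at least 9.69-fold higher in the high state, taking the floor of 3 counts in each low library. Another 15 interferon genes, among them Ifng, Ifna1 and Ifnl2, had 0 counts in all 5 untreated libraries, and Ifna4 had 2 counts in Het and 2 in KO3. Ifnz had 3, 1 and 2 counts in the low libraries and 4 and 2 in the high ones, so interferon transcripts were seen in every culture, and those of Ifnb1 in the high libraries alone, at counts near the limit of this depth.

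The receptor chains differed little. Ifnar1, a chain of the type I receptor, had 2188, 2172 and 2018 counts in WT, KO1 and KO2 and 1870 in Het and 1612 in KO3, and Ifnar2 had 1242, 1026 and 1026 against 1146 and 1162. Ifngr1 and Ifngr2, the chains of the interferon gamma receptor, and Il10rb, a chain shared with interleukin 10, were not 2-fold apart either, with differences of -0.69, 0.02 and -0.26; that of Il10rb changes sign when libraries are scaled to column totals. Only Ifnlr1, a chain of the lambda receptor that reached enough counts in the high libraries alone, was higher, at 9, 5 and 5 counts against 27 and 23 (3.37-fold by mean CPM).

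Downstream of the receptors, 7 of 12 kinases, Stat and Irf genes were higher in the high state, 0 were lower, and their median difference was 1.40. The kinases stayed within 2-fold: Jak1 had 6264, 5981 and 5531 counts in the low libraries and 4131 and 3935 in the high ones, Jak2 differed by 0.26 and Tyk2 by 0.92 on the log2 scale. Stat2, a signal transducer of the type I receptor, had 495, 467 and 489 counts in WT, KO1 and KO2 and 4630 in Het and 5635 in KO3, which is 9.03-fold by mean CPM (log2 difference 3.16, SD within the states 0.19). Irf9, which brings Stat2 to DNA, had 277, 264 and 302 against 2202 and 2152 (6.55-fold). Stat2 and Irf9 were thus higher in both high libraries, with no overlap. Irf7, the factor that amplifies interferon production, showed the widest gap of the family, with 24, 31 and 25 counts in the low libraries and 2815 and 3065 in the high ones (93.6-fold). Irf1, Irf5 and Irf8 were 2.23-, 3.13- and 4.69-fold higher, while Irf2 (-0.57) and Irf3 (0.96), which is present before any signal, stayed under 2-fold.

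Among the 4 genes listed as negative regulators of the pathway is Isg15, which chose the groups, so its call was fixed. Of the others Usp18 and Socs1 were higher in the high state and Socs3 was not, where 20.7% of all genes were higher. Usp18, the protease that removes Isg15 from proteins and blocks the receptor, had 14, 31 and 23 counts in WT, KO1 and KO2 and 5078 in Het and 5152 in KO3 (190.1-fold). Socs1, an inhibitor of the JAK kinases, had 47, 57 and 79 against 187 and 161 (2.38-fold). Socs3 had 428, 453 and 430 against 498 and 374, with overlap between the states. Isg15 itself, on chromosome 4 from 156199424 to 156200818 of GRCm38, had 29, 74 and 39 counts in the low libraries and 10742 and 10974 in the high ones, the values the choice rests on.

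Of 14 sensors of nucleic acids and their adaptors, 10 were higher and 1 was lower, with a median difference of 1.80; 2 had enough counts only in the high libraries, and of the other 12 8 were higher and 1 lower (median 1.40). Ddx60, a helicase that assists RNA sensing, had 2, 5 and 4 counts in the low libraries and 559 and 709 in the high ones (146-fold). Zbp1, a sensor of Z-form nucleic acids, had 2, 3 and 1 against 341 and 473, and Dhx58, which modulates RNA sensing, 26, 21 and 16 against 598 and 560. Aim2, which senses DNA in the cytosol, had 19, 10 and 18 counts against 256 and 179 (11.7-fold). The exception was Tmem173, which encodes STING, the adaptor of cytosolic DNA sensing: it had 1281, 1706 and 1248 counts in WT, KO1 and KO2 and 572 in Het and 588 in KO3, a log2 difference of -1.50. It was the only gene of the interferon list called lower in the untreated high state, and with column totals no gene of the list was.

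Antiviral effectors formed the largest role of the list: 74 of 77 had enough counts (14 only in the high libraries), 60 were higher, 0 were lower and 14 were neither. Their median difference was 2.95, or 2.73 with genes at the floor set to it, and without those counted only in the high libraries 46 of 60 were higher, with a median of 2.29. Rsad2, which encodes viperin, an enzyme that makes a chain-terminating nucleotide, had 6, 9 and 1 counts in WT, KO1 and KO2 and 966 in Het and 998 in KO3 (160.1-fold). The dynamin-like GTPase genes Mx1 and Mx2 were close to silent in the low state, Mx1 with 0, 2 and 0 counts against 348 and 308 and Mx2 with 1, 3 and 1 against 1157 and 1322. Bst2, which encodes tetherin, a protein that holds budding viruses on the cell surface, was measured in every library, with 234, 385 and 233 counts against 11502 and 12731 (36.3-fold). Low and high libraries did not overlap for any of these 4 genes.

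Gene families of the pathway are given with the members that had 10 counts in at least 1 low library, since the others could hardly come out but higher. All 3 Ifit genes, whose proteins bind foreign RNA ends, were higher, with a median of 6.98; Ifit1 had 14, 22 and 16 counts in the low libraries and 5248 and 4864 in the high ones (247-fold), Ifit3 was 128-fold and Ifit2 3.85-fold higher. Of 12 oligoadenylate synthetase genes, whose product activates an RNase, 8 had enough counts, 5 of them only in the high libraries, and the other 3 were all higher (median 6.14). Oasl2, the member with the most counts, had 34, 42 and 23 against 4158 and 3587 (log2 difference 6.59). The guanylate-binding proteins, GTPases that attack microbial vacuoles, had enough counts for 9 of 11 genes, 6 of them only through the high libraries, and the other 3 were all higher (median 5.79). Gbp3 had 13, 26 and 11 counts against 2409 and 2489. Of the other interferon-inducible GTPases 7 of 8 were higher (median 4.98, without 4 counted only in the high libraries), from Irgm1 at 5.15-fold to Iigp1 at 111-fold. Of the Schlafen genes 4 of 4 were higher (median 3.59, without 1 counted only in the high libraries), among them Slfn2 with 168, 212 and 51 counts against 2223 and 1900. The Ifi genes were higher for 7 of 9 (median 2.72, without 2 counted only in the high libraries), with Ifi202b at 137, 96 and 117 counts against 2006 and 3650.

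Membrane and antigen presentation genes differed less. Of 7 Ifitm genes, whose proteins keep viruses from fusing with endosomes, 5 had enough counts (1 only in the high libraries), and 3 were higher, namely Ifitm1 (7.67-fold), Ifitm5 (2.44-fold) and Ifitm3 (2.0-fold), the latter pair under 2-fold without WT (log2 differences 0.95 and 0.94), with a family median of 1.00; without Ifitm5, counted only in the high libraries, 2 of 4 were higher and the median was 0.54. Among genes of antigen presentation 29 of 60 had enough counts (5 only in the high libraries), 18 were higher and 0 lower, and the median difference was 1.25, or 13 of 24 higher and 1.11 with those left out. Psmb8, a subunit of the immunoproteasome that cuts peptides for display, had 13, 27 and 14 counts in the low libraries and 572 and 612 in the high ones (28-fold). Nlrc5, the activator of class I genes, had 15, 13 and 7 against 233 and 206 (16.2-fold), and B2m, the common light chain, 9425, 7437 and 8268 against 20962 and 19135 (2.03-fold, or a log2 difference of 0.93 without KO1). Secreted products of the pathway were higher for 11 of 14 genes (4 with enough counts only in the high libraries), with a median of 2.69, or 2.25 with floors, and of the 10 others 7 were higher (median 1.98). Cxcl10, a chemokine for T cells, had 27, 53 and 15 counts in WT, KO1 and KO2 and 2201 in Het and 1758 in KO3 (53.4-fold), and Ccl5 had 16, 13 and 30 against 555 and 459 (21.4-fold). Irg1, whose enzyme makes itaconate, had 4, 6 and 2 counts against 1750 and 885 (279-fold).

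Beyond interferon, inflammatory cytokines and chemokines had 21 of 31 genes higher and 3 lower, with a median difference of 3.13 where that of all genes was 0.04. As 8 of them were counted sufficiently only in the high libraries, the rest are given apart: 13 of 23 were higher and 3 lower, with a median of 1.86, where 2205 of 13453 genes were higher. Ccl3, a chemokine for monocytes, had 13, 6 and 4 counts in WT, KO1 and KO2 and 2472 in Het and 947 in KO3 (189.8-fold), and Ccl4 8, 3 and 6 against 1202 and 528 (128-fold). Il1b, the cytokine released by inflammasomes, had 1, 1 and 0 counts against 883 and 480, and the related Il1a 1, 0 and 0 against 193 and 99. Cxcl1 and Cxcl2, which draw neutrophils, had 18, 29 and 15 and 2, 1 and 2 counts in the low libraries, against 1229 and 2426 for Cxcl1 and 368 and 288 for Cxcl2 in the high ones. Tnf, a master cytokine of inflammation, had 3, 8 and 2 against 491 and 268 (74.1-fold). Het was the higher of the high libraries for Ccl3, Ccl4, Il1a, Il1b and Tnf, and KO3 for Cxcl1. The 3 lower members were Il1rn (-1.73), the natural antagonist of interleukin 1, Cxcl14 (-1.43) and Cx3cl1 (-1.31) on the log2 scale, of which 1 is still called with column totals. Cxcl12, the member with the most counts, had 26655, 9764 and 22150 counts against 7761 and 17416 and overlapped.

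Of the acute phase and complement genes with 10 counts in a low library, 7 of 12 were higher and 1, C1rl (-1.31), lower, with a median of 1.65, and another 3 had enough counts only in the high libraries. With column totals C1rl was not called. Saa3, a serum amyloid A protein that fibroblasts and macrophages secrete, had 5, 6 and 0 counts in WT, KO1 and KO2 and 2416 in Het and 5012 in KO3 (901-fold). Lcn2, which withholds iron from bacteria, had 0, 1 and 0 against 448 and 127, and Steap4, a metalloreductase, 5, 6 and 8 against 219 and 282 (33.3-fold). C3, the central complement protein, had 20, 44 and 19 counts against 434 and 262 (10.6-fold). Of NF-kB feedback genes and targets, 10 of 24 were higher and 1, Ptx3 (-1.18), lower, with a median of 0.67. Enough counts were reached only in the high libraries for 1 gene, and with column totals 13 were higher and 0 lower. Over all genes 20.7% were higher and 11.7% lower, or 4792 and 598 of 14258 with column totals. Nos2, the inducible nitric oxide synthase, had 0 counts in the low libraries and 121 and 136 in the high ones, at least 36.4-fold higher against the floor. Mmp13, a collagenase, was 8.29-fold, Tlr2, a receptor for bacterial lipoproteins, 6.22-fold and Traf1, an adaptor of Tnf receptors, 6.03-fold higher, whereas Ptgs2, the target with the most counts, was not 2-fold apart (-0.59).

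Among all genes outside the interferon list, Slc13a3, a sodium-coupled transporter of dicarboxylates, had the largest difference, with 3, 1 and 1 counts in WT, KO1 and KO2 and 3984 in Het and 2100 in KO3. Saa3 came next, then Marco, a scavenger receptor of macrophages, with 5, 3 and 4 counts against 2051 and 1342 (357-fold). Wfdc17 had 1, 3 and 0 counts against 435 and 229, the lymphocyte activation antigen Cd69 2, 1 and 1 against 403 and 165, and Fpr1, a receptor for formylated peptides, 2, 1 and 2 against 369 and 169. The remaining 9 of the 15 genes with the largest positive differences were Il1b, Ccl3, Lcn2, Ccl4, Cxcl2, Cxcl1, Nos2, Il1a and Tnf, all described above. These 15 genes were picked by the size of their difference, so their lack of overlap says nothing more, and all but Ccl3 and Cxcl1 had fewer than 10 counts in every low library and so had enough counts only through the high ones.

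Markers of macrophages were higher in the high state too. With 19 of 20 marker genes at enough counts, 14 were higher and 1 was lower, with a median of 1.82, or 16 higher and 1 lower and 2.34 with column totals. The summed level of the list was 335, 238 and 179.8 CPM in WT, KO1 and KO2, 1118 in Het and 711 in KO3, and Lyz2, which encodes a lysozyme, held the most counts, 1912, 1223 and 923 in the low libraries and 8201 and 6419 in the high ones. Both high libraries lay above the 3 low ones, at 3.64-fold by the mean, and Het lay above KO3. Emr1, the F4/80 antigen, had 204, 154 and 88 counts against 2604 and 1316 (11.2-fold), and Aif1, a calcium-binding protein of macrophages, 15, 10 and 5 against 751 and 402 (49.3-fold). The exception was Mrc1, the mannose receptor, with 182, 95 and 76 counts in WT, KO1 and KO2 and 7 in Het and 6 in KO3. Macrophage markers were present in every culture, so none of the states was free of them. In bulk RNA, more or fewer cells of a type and more or less RNA per cell cannot be told apart, and the part of macrophages in the inflammatory and interferon genes was not tested.

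Skeletal muscle markers were also higher, for 8 of 9 with enough counts out of 12, with 0 lower and a median of 3.01. As 2 of the 9 had enough counts only in the high libraries, the other 7 are given apart. Of these 7, 6 were higher and 0 lower, with a median of 3.01. Over all genes, without those counted only in the high libraries, 2205 of 13453 were higher. Mylpf, a myosin light chain of fast fibres, had 60, 29 and 45 counts in WT, KO1 and KO2 and 1344 in Het and 555 in KO3 (17.8-fold), and Tnni1, a troponin of slow fibres, 26, 8 and 21 against 445 and 176 (14.1-fold). Acta1, the member with the most counts, ran the other way with 2028, 2077 and 1383 against 1306 and 887 (log2 difference -0.98), so the summed list, at 107, 110.0 and 83.3 CPM in WT, KO1 and KO2, 187 in Het and 97.6 in KO3, overlapped between the states. The satellite cell genes Myf5 and Pax7 were at 0 or 1 count in each untreated library. Of 7 markers of glia and neural crest, 4 were higher, Fabp7, Sox10 and Erbb3 among them (median 1.63), chiefly in Het: the list summed to 8.14, 33.5 and 14.7 CPM in WT, KO1 and KO2, 218 in Het and 33.2 in KO3. Fabp7, a lipid-binding protein of glia and the member with the most counts, had 72, 307 and 104 counts against 3912 in Het and 404 in KO3, where KO1 and KO3 lay close together. Of the adipocyte markers 4 of 7 had enough counts; Cd36, a fatty acid transporter that macrophages carry as well, had 107, 97 and 64 against 3337 and 2116 (25.9-fold), Lpl was 3.07-fold higher and Pparg lower (log2 difference -1.38, or -0.88 without Het, and not called with column totals). The parts of these cell types in the differences were not tested.

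Lymphocyte, granulocyte and liver markers were close to absent. Of 10 T and NK cell markers 2 had enough counts, Lck without a gap between the states and Cd3g, through the high libraries only, with 1, 0 and 1 counts in the low libraries and 46 and 21 in the high ones. The only B cell marker with enough counts, Cd79b of 5, had 1, 0 and 1 against 26 and 12, and the only hepatocyte marker, Afp of 6, 0, 3 and 2 against 44 and 33. Enough counts were found for 2 of 5 neutrophil markers, both only through the high libraries: S100a8 with 0, 1 and 0 against 30 and 38 and Csf3r with 5, 0 and 0 against 71 and 42. Of 10 erythroid genes 8 had 0 counts in all 5 libraries, and Alas2 (11, 10 and 5 against 13 and 14) was not 2-fold apart (log2 difference 0.39). Zbtb46, the only dendritic cell marker of 5 with enough counts, overlapped between the states. Among endothelial markers 8 of 11 had enough counts. The 2 higher ones, Pecam1 (1, 1 and 2 against 51 and 36) and Vwf, had them only in the high libraries. Of the other 6, 0 were higher and 3 were lower, namely Flt1, Kdr and Erg (median -0.79). The median of all 8 was -0.44 and turned to 0.06 with column totals, where 1 was lower. Of 9 epithelial markers 3 had enough counts and Krt19 was lower (258, 432 and 329 against 87 and 90), and of 5 mesothelial markers 4 had enough, with Msln (46, 57 and 65 against 7 and 6) and Upk3b lower and a median of -1.70, or -1.85 with floors. Pericyte markers were lower for 3 of 5 (median -1.70), Cspg4 with 5598, 5273 and 4572 against 1369 and 920, Kcnj8 and Abcc9, and Rgs5 was higher (93, 31 and 50 against 207 and 193). Neither the 2 osteoblast markers of 6 with enough counts (median -0.79) nor the 5 neuronal ones of 7 (median -0.34, turning to 0.15 with column totals) held a gene called apart.

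**Figure D2:**
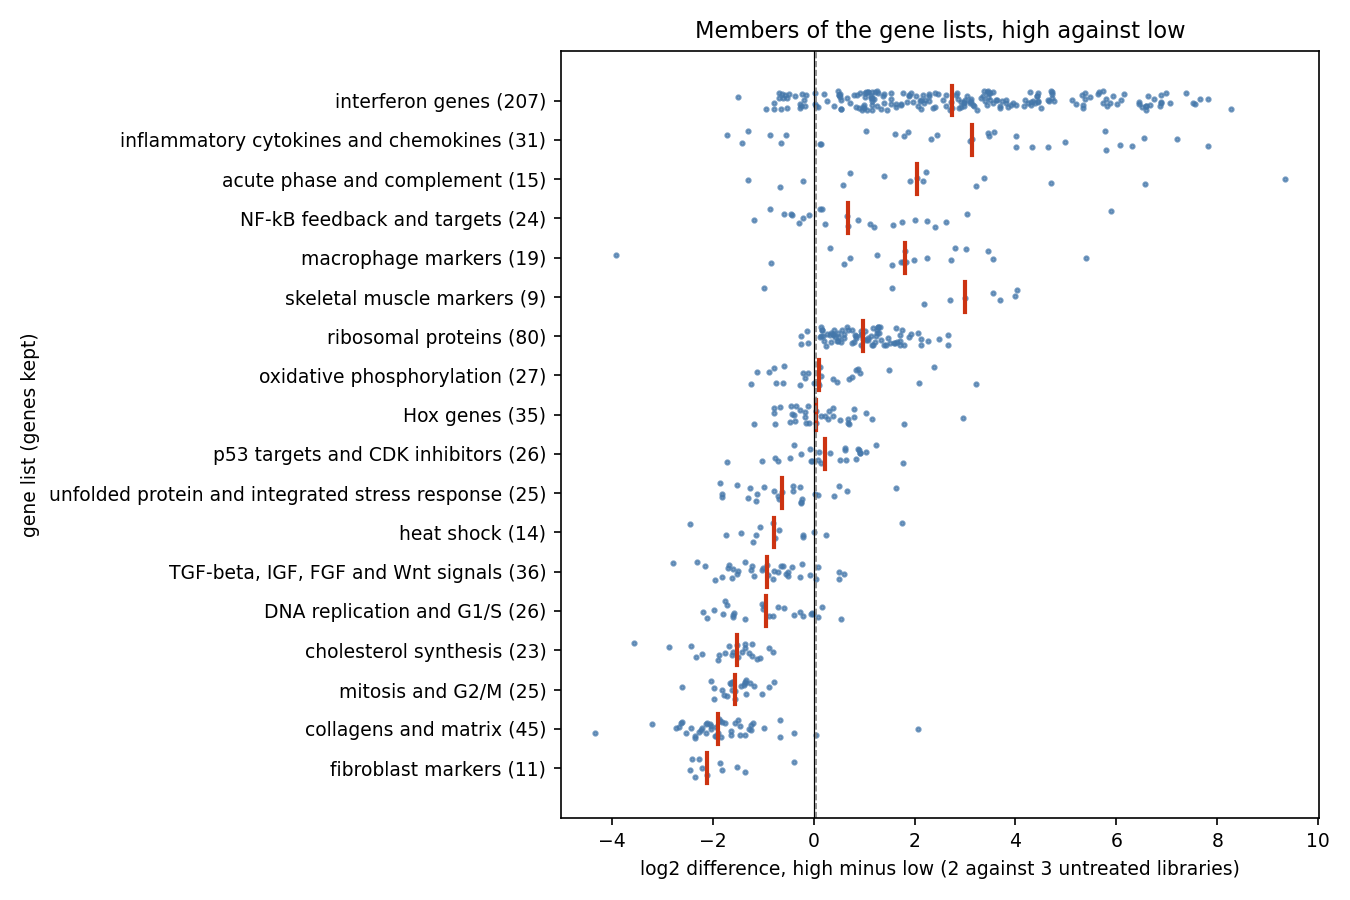
Log2 difference between the high and the low untreated state (horizontal axis, mean of 2 libraries minus mean of 3) for each gene with enough counts in 18 gene lists, with 1 dot per gene, a red bar at the median of each list and a dashed line at the median of all genes, 0.04. The interferon list has its median at 2.75 and the fibroblast markers theirs at -2.12.

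Genes of the fibroblast itself were lower in the high state. Of the 11 fibroblast markers 10 were lower in the high state, 0 were higher, and the median was -2.12, or 8 lower and -1.59 with column totals. Summed, the markers reached 91293, 76139.6 and 84239 CPM in WT, KO1 and KO2, 20242 in Het and 16338 in KO3, which is 4.59-fold lower by the mean in the high state, without overlap. Col1a2, a chain of type I collagen, had 296110, 235101 and 273156 counts in WT, KO1 and KO2 and 74093 in Het and 57247 in KO3 (4.84-fold lower), while Thy1 was 5.52-fold, Fn1 5.03-fold and Pdgfra 4.89-fold lower. Dcn, the proteoglycan decorin, was the marker not called lower, with 1335, 2792 and 714 counts against 1024 and 1514. In the larger list of collagens and matrix genes 39 of 45 were lower and 1 was higher, with a median of -1.90, or 1 higher and 31 lower and -1.37 with column totals. Col6a3 and Col6a2, chains of the microfibril collagen VI, had 12878, 19144 and 14784 and 10618, 13387 and 13286 counts in the low libraries, against 851 and 952 for Col6a3 (20.4-fold lower) and 1464 and 1696 for Col6a2 (9.29-fold lower). Col12a1 was 6.58-fold lower and Fbn2, a fibrillin, 6.41-fold. The single higher gene was Col7a1, the collagen of anchoring fibrils, with 5519, 5084 and 4394 counts against 28896 and 20683 (4.19-fold). All 5 cartilage markers with enough counts, of 7, were lower as well (Acan, Comp, Hapln1, Sox9 and Col2a1, median -1.80), Col2a1 with 6144, 5331 and 6727 against 2251 and 1458.

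The largest negative difference of any gene outside the interferon list was that of Aoc3, a cell surface amine oxidase, with 235, 220 and 223 counts in WT, KO1 and KO2 and 7 in Het and 10 in KO3 (31.1-fold lower). Mrgprf, a receptor of the Mas-related family, had 292, 431 and 356 against 23 and 32, and the water channel Aqp1 341, 781 and 606 against 36 and 54 (15.1-fold lower). Several others are secreted or matrix proteins: Thbs4 was 15.2-fold, Nov 16-fold, Abi3bp 12.2-fold, Prg4, the lubricin of joints, 11.2-fold, Angptl7 12.9-fold and Acan, the aggrecan of cartilage, 11.5-fold lower. The folds of Thbs4, Nov and Abi3bp depend on single libraries. Thbs4 had 100, 257 and 219 counts in WT, KO1 and KO2 and 25 in Het and 6 in KO3. Nov had 761, 2135 and 707 against 109 and 69, and Abi3bp 198, 270 and 427 against 18 and 40. Adra1d, an adrenergic receptor, was 11.4-fold lower, Gjb2, a gap junction protein, 12-fold and Dio3, which inactivates thyroid hormone, 11.7-fold. With Col6a3 and Mrc1 these are among the 15 genes with the largest negative differences, picked by that size.

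Most genes of mitosis and 12 of 26 replication genes were lower in the high state. Of all genes 11.7% were lower, or 598 of 14258 with column totals. Of 25 genes of mitosis 23 were lower and 0 higher, with a median of -1.56, or 14 lower and -1.03 with column totals. Plk1, the kinase that drives mitotic entry, had 1882, 2864 and 1833 counts in WT, KO1 and KO2 and 372 in Het and 463 in KO3 (6.15-fold lower), and Cdc20, the activator of anaphase, 2271, 3189 and 2168 against 645 and 869 (3.93-fold lower). Tpx2, a spindle protein, and Top2a, a topoisomerase, were 3.96- and 3.11-fold lower. Of 26 replication genes 12 were lower and 0 higher (median -0.94, or 1 higher and 9 lower and -0.41 with column totals), among them the polymerase gene Pola1 (4.61-fold lower) and the helicase subunits Mcm4 (3.96-fold) and Mcm3 (3.49-fold). Rrm1, which makes deoxynucleotides, had 6328, 8785 and 5659 against 1891 and 1815 (4.4-fold lower). KO1 had the most counts of each of these genes, and the high libraries lay below all 3 low ones for all of them.

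Cholesterol synthesis genes were lower for 21 of 23 with 0 higher and a median of -1.53, or for 11 with column totals. Cyp51, which demethylates lanosterol, had 5561, 7942 and 5015 counts in WT, KO1 and KO2 and 1346 in Het and 1501 in KO3 (5.09-fold lower), so that both high libraries lay below all 3 low ones.

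Calls among stress and growth genes depended on the scaling: fewer were lower with column totals, as was the case over all genes. Over all genes 20.7% were higher and 11.7% lower with TMM, and 4792 and 598 of 14258 with column totals. In the list of the unfolded protein and integrated stress responses 8 of 25 genes were lower and 1 higher (median -0.62), where column totals gave 3 higher and 3 lower (median -0.09): Pdia6 and Pdia4, which form disulfide bonds in the endoplasmic reticulum, were 3.66- and 3.55-fold lower, and Hsp90b1, its chaperone, 3.59-fold. The higher gene was Ddit3, the stress factor CHOP, with 1116, 362 and 708 counts in the low libraries and 2698 and 2131 in the high ones (2.82-fold). Of 14 heat shock genes 6 were lower and 1 higher (median -0.78, or 1 higher and 2 lower and -0.25 with column totals), with Hspa1b at 771, 1107 and 761 counts against 210 and 163 and, as the higher one, the mitochondrial co-chaperonin Hspe1 at 1410, 1518 and 1321 against 4960 and 6426. Hspd1, the partner of Hspe1, was 2.72-fold lower. Growth signals of the TGF-beta, IGF, FGF and Wnt families were lower for 17 of 36 genes and higher for 0 (median -0.92, or 1 higher and 9 lower and -0.39 with column totals). Igf2, an embryonic growth factor and the member with the most counts, had 70527, 61245 and 77261 against 26103 and 20632 (3.55-fold lower), Sfrp1, a Wnt antagonist, was 4.96-fold and Igfbp4 4.35-fold lower.

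Calls among contractile and early response genes also depended on the scaling; over all genes 20.7% were higher and 11.7% lower, and with column totals 4792 and 598 of 14258, so nothing is read from the few higher members here. Of 17 smooth muscle genes 6 were lower and 0 higher (median -0.81, or none called and -0.28 with column totals), Acta2, the actin of myofibroblasts, with 181545, 233594 and 137996 counts in WT, KO1 and KO2 and 97911 in Het and 78547 in KO3 (2.46-fold lower). Of 22 targets of the mechanical signal YAP/TAZ the 5 lower genes were Crim1, Nt5e, Axl, Ctgf and Cyr61, from 2.44-fold (Cyr61) to 4.07-fold (Crim1), with 0 higher and a median of -0.82, and column totals gave 1 higher and 2 lower (median -0.29). Of 26 early response factors 6 were lower and 2 higher (median -0.63, or 2 higher and 3 lower and -0.11 with column totals): Klf2, Egr3 and Egr1 were 4.13-, 3.57- and 3.16-fold lower, and Atf3, a stress factor, and Ier3 were 5.71- and 2.06-fold higher.

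Several other programmes had calls on both sides, and column totals moved them upward; over all genes 20.7% were higher and 11.7% lower, and nothing particular to these lists is read from their calls. Of 26 p53 targets and CDK inhibitors, Fas, a death receptor, Mdm2, the ligase that degrades p53, and Pmaip1, the death protein NOXA, were 3.43-, 2.36- and 2.04-fold higher, Pmaip1 no longer 2-fold without Het (0.77) or KO1 (0.85), while Cdkn2c (3.42-fold) and Tnfrsf10b were lower; the median was 0.23, and column totals gave 12 higher and 1 lower (0.76). Of 13 oxidative and metal stress genes Gclc, which limits glutathione synthesis (2.59-fold), Gsta4, Nqo1 and Hmox1 were higher, and the zinc exporter Slc30a1 was lower (2.58-fold), with a median of 0.51, or 7 higher and 0 lower and 1.04 with column totals. Hypoxia and glycolysis genes split, with Car9, a carbonic anhydrase (5.75-fold), Bnip3 (3.37-fold), Vegfa (2.81-fold) and Ankrd37 (3.06-fold) higher and P4ha1, P4ha2, Ldha, Slc2a1 and Adm lower, and their median of -0.35 turned to 0.18 with column totals (5 higher and 1 lower). Bnip3 was not 2-fold higher without KO3 (0.85), nor was Ldha 2-fold lower without Het (-0.85). Among 27 genes of oxidative phosphorylation, the small subunits Atp5e (8.45-fold), Cox7b (5.22-fold), Ndufa4 (4.29-fold) and Cox6c (2.84-fold) were higher and Sdha and Atp5a1 lower, around a median of 0.10, or 9 higher and 0 lower and 0.63 with column totals. Of 35 Hox genes with enough counts, out of 39, Hoxd3 had 10, 24 and 11 counts in the low libraries and 264 and 76 in the high ones, Hoxd4, Hoxb4 and Hoxb3 were higher too and Hoxc12 was lower (median 0.04, or 10 higher and 0 lower and 0.56 with column totals).

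Of 80 ribosomal protein genes 39 were higher and 0 lower (median 0.98), where 20.7% and 11.7% of all genes were. With column totals 59 were higher, where 4792 of 14258 genes were. These shares were not matched for transcript length, which is described next. Together the ribosomal protein genes reached 14238, 13752 and 14616 CPM in WT, KO1 and KO2, 23495 in Het and 31499.8 in KO3. Rps3, the one with the most counts, had 22305, 20694 and 20429 counts against 49583 and 63707 (2.29-fold, or a log2 difference of 0.93 without KO3).

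Transcript length went with the untreated state. Over the 14123 genes with an exon length (99.1%), split into 4 length classes of like size, the median difference was 0.52 in the shortest class, of at most 2734 bases, then 0.06 and -0.09, and -0.26 in the longest class. Genes higher in the high state made up 33.8% of the shortest and 11.5% of the longest class, and lower genes 6.23% and 15.6%. Between the high libraries Het and KO3 the same medians ran only from -0.09 to 0.05. In the comparison of treated Het with the other treated libraries, described below, they were 0.09, -0.15, -0.14 and -0.01 from the shortest to the longest class, without such an order. Rn45s, the precursor of ribosomal RNA, had 11607 counts in WT and 9167 in KO1, 141179 in Het and 140748 in KO3, and 683380 in the low library KO2, so it overlapped between the states. The parts of transcript length and of ribosomal RNA in the differences were not tested.

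Among the treated libraries, Het was compared with WT, KO1 and the library labelled KO2 and KO3. Het is here the only library known to come from an embryo of the high state, the only one of its genotype and a single embryo, so state, genotype and embryo cannot be told apart. With doxorubicin, Isg15 had 739, 914 and 1242 counts in WT, KO1 and the shared library and 4161 in Het, and its level in Het was above the other 3 by edgeR's quasi-likelihood test (log2 fold change 2.07, SE 0.19, FDR 9.22e-05). Of 16210 genes tested, 2385 were higher in Het (14.7%) and 2383 lower (14.7%) at an FDR under 0.01, and of the 213 interferon genes tested 93 were higher and 11 lower, with a median log2 fold change of 0.93, where that of genes outside the list was 0.02. DESeq2 called 1757 genes higher and 2727 lower, 81 and 13 of them interferon genes, so the even split of the calls depended on the tool. Of the interferon genes with 10 counts in at least 1 of the other 3 libraries 83 of 197 were higher in Het and 11 lower. Het has 1 library here and is assumed to vary like the other 3, which give the spread with 2 residual degrees of freedom and a biological coefficient of variation of 0.125, so the FDRs hold only as far as that assumption does. Without KO1, 3653 genes were lower in Het, 18 of them interferon genes. Of the 2947 genes higher in the untreated high state, 1271 were higher in Het here (43.1%), which is 62.4% of the 2037 genes of that set of 14258 that were higher in Het, and 6 were lower. Of the 1671 lower ones 1033 were lower here (61.8%, and 43.8% of 2357), and 7 were higher. The libraries are different ones, though the embryos are the same. Rn45s had 18096, 29904 and 23836 counts in treated WT, KO1 and the shared library and 398780 in Het (log2 fold change 3.99). Its part in these differences was not tested.

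**Figure D3:**
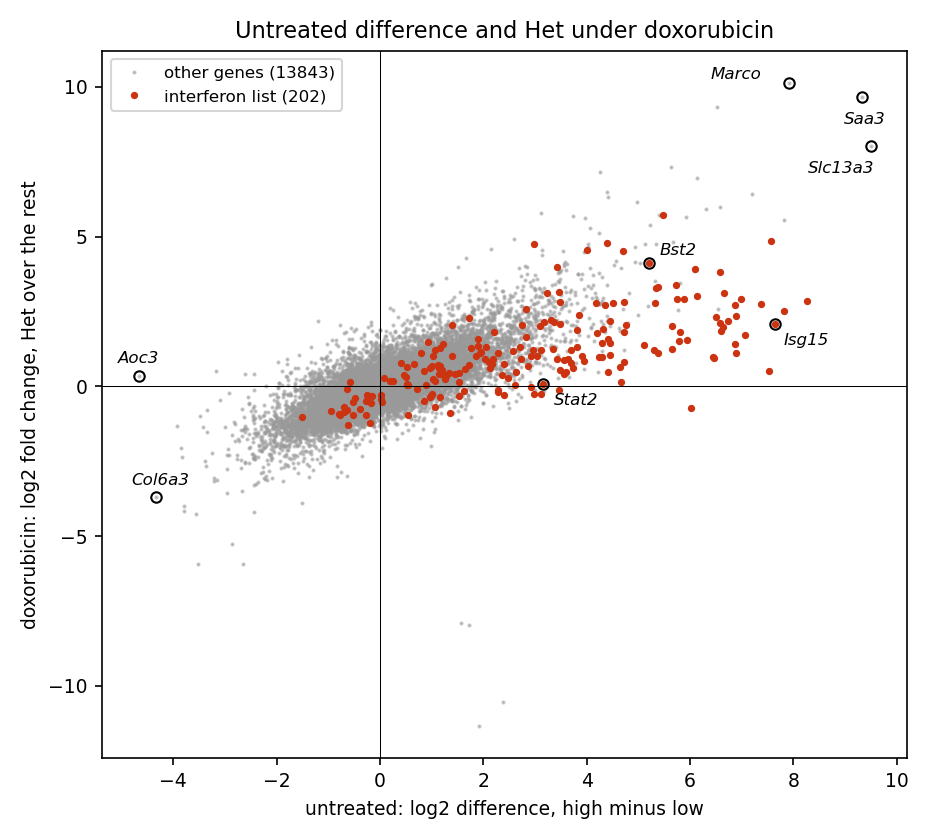
Log2 difference between the high and the low state without treatment (horizontal axis) against the log2 fold change of Het over the other doxorubicin libraries (vertical axis), with 1 point per gene measured in both and genes of the interferon list in red. Marco, Saa3 and Slc13a3 lie at the upper right, Col6a3 at the lower left, while Stat2 and Aoc3 lie near 0 on the vertical axis.

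By role, 27 of 73 antiviral effectors were higher and 4 lower in treated Het (26 of 70 higher among those with 10 counts in another treated library), and 4 of 12 kinases, Stat and Irf genes were higher and 1 lower. Ifnb1 had 1, 3 and 0 counts in the other libraries and 35 in Het (log2 fold change 4.55). With under 10 counts in each of the others, it entered the test only through Het and could hardly come out but higher. Ccl5 had 25, 20 and 27 against 683 (log2 fold change 4.79, SE 0.20, FDR 1.51e-06), Bst2 703, 790 and 922 against 14353 (log2 fold change 4.11, SE 0.16, FDR 1.21e-06) and Aim2 40, 39 and 64 against 768 (log2 fold change 3.97, SE 0.21, FDR 5.94e-06). Het was the only high library for these 4 genes, above all 3 others. Stat2 had 1023, 955 and 1312 counts against 1177 (log2 fold change 0.07, SE 0.15, FDR 0.722) and was not past the threshold, although it was higher in untreated Het and KO3. Irf9 (log2 fold change 1.32) and Irf7 (0.94) were still higher in Het, above all 3 other libraries, at FDRs of 0.00024 and 0.000509. Of the kinases, Jak1 was lower in Het and Tyk2 higher (log2 fold changes -0.92 and 1.48, FDRs 0.00201 and 0.000467), beyond all 3 other libraries. The 11 interferon genes lower in Het were Jak1, Ifngr1, Mavs, Samhd1, Ly6e, Tor1aip1, Shisa5, Rbm43, Tap1, Lap3 and Ifi30.

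Outside the interferon list, some of the genes and lists that differed between the untreated states also set treated Het apart, and others did not. Marco had 2, 2 and 1 counts in WT, KO1 and the shared library and 2064 in Het (log2 fold change 10.13). Saa3 had 3, 3 and 4 against 2872 (log2 fold change 9.66). Both had under 10 counts in each other treated library, so they entered the test only through Het and could hardly come out but higher. Slc13a3 had 22, 25 and 14 against 5489 (log2 fold change 8.02, SE 0.21, FDR 5.96e-08), and Cd52, a surface peptide of leukocytes, 16, 32 and 16 against 1973 (log2 fold change 6.47, SE 0.27, FDR 1.51e-06). In these 4 genes Het was far above all 3 others, which lay close together. Inflammatory cytokines and chemokines were higher in Het for 19 of 31 tested and lower for 2, Cxcl12 (a call lost with DESeq2) and Cxcl14, and of those with 10 counts in at least 1 other treated library 14 of 26 were higher, where 2176 of 15282 genes were. Macrophage markers, all of which had such counts, were higher for 18 of 19. The macrophage markers summed to 263, 230.2 and 156 CPM in WT, KO1 and the shared library and 1314 in Het, the highest of the 4. Of the muscle markers 7 of 11 were higher, or 4 of 7 of those with counts outside Het.

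On the lower side, Abi3bp, a matrix-binding protein, had 248, 238 and 446 counts in the other treated libraries and 5 in Het (log2 fold change -5.94, SE 0.53, FDR 7.47e-05). Col6a3 had 4990, 8525 and 6121 against 530 (log2 fold change -3.69, SE 0.40, FDR 0.000186). For both genes Het lay below every other library, as it had without treatment. Collagens and matrix genes were lower in Het for 31 of 45 and higher for 2, Col7a1 and Col5a3. Genes of mitosis were lower for 23 of 25, of replication for 15 of 26, of cholesterol synthesis for 17 of 23 and fibroblast markers for 7 of 11. Thus Plk1 had 1959, 2163 and 2220 counts against 761 (log2 fold change -1.52, SE 0.17, FDR 0.000233). Aoc3, the gene with the largest negative difference without treatment, was not past the threshold here, with 370, 271 and 349 counts against 434 (log2 fold change 0.36, SE 0.18, FDR 0.123). The growth signals (14 of 36) and the unfolded protein list (15 of 25) were lower in part, where 14.7% of all genes were lower and 14.7% higher. Ribosomal protein genes, of which 39 of 80 were higher without treatment, had 8 of 81 higher and 3 lower in treated Het, under the share of all genes on both sides, and genes of oxidative phosphorylation 4 higher and 10 lower of 27.

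How interferon genes changed with doxorubicin itself was tested within WT, Het and KO1, the embryos with a control and a treated library of their own, with the embryo as a block. This comparison shares the untreated libraries with the description above, and Isg15 in these controls chose the states. For interferon genes a high start in Het and a low start in WT and KO1 is thus built in. The counts below concern the treatment over the 3 embryos, and nothing about the state is read from them. Of 14863 genes tested, 3448 rose (23.2%) and 3171 fell (21.3%) at an FDR under 0.01, and of 193 interferon genes 31 rose and 8 fell. Nlrc5 rose in all 3 embryos (edgeR, log2 fold change 3.31, SE 0.29, FDR 0.000366), as did Aim2 (log2 fold change 1.70, SE 0.27, FDR 0.00218), Bst2 (log2 fold change 1.11, SE 0.20, FDR 0.00337) and Ifitm1 (log2 fold change 1.88, SE 0.28, FDR 0.00189). The log2 fold change of Isg15 over the 3 embryos was 2.45. Its values in these controls chose the states, so no test of it is read. Without the block 6 interferon genes rose, and the calls of Nlrc5, Aim2, Bst2 and Ifitm1 were lost. Leaving out Het raised the calls: 5249 genes then rose and 4849 fell, and 125 interferon genes rose and 16 fell. As WT and KO1 were chosen for low Isg15 in these controls, nothing about the state is read from this. Without WT 1587 genes fell, and 19 interferon genes rose and 4 fell, and without KO1 1680 genes fell, 4 of them interferon genes.

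By embryo, changes are given from each control, and since the states were chosen by Isg15 in these controls, a high start in Het and a low start in WT and KO1 is built into them. Isg15 differed between treated and control by 4.59 in WT, 3.67 in KO1 and -1.03 in Het on the log2 scale. Ifit1 differed by 2.55, 2.05 and -2.76, and Rsad2 by 2.33, 2.27 and -2.36 in the same order. Treated WT and KO1 thus lay above their controls and treated Het below its own for these genes. Stat2 showed 1.06 and 1.11 in WT and KO1 and -1.64 in Het. Of 141 interferon genes that were higher in the untreated high state and tested here, 89 were at least 2-fold above the control in WT, 91 in KO1 and 14 in Het, and 53 were at least 2-fold below it in Het. In 25 of them, Isg15 and the other 3 genes above included, WT and KO1 lay above and Het below the control by at least 2-fold. These genes were picked by the same untreated levels from which the change is measured, so nothing is read from the counts. The median change of the interferon list was 1.15 in WT, 1.11 in KO1 and -0.34 in Het. The difference between the embryos' changes was not tested, since each embryo has 1 library per treatment. Bst2 and Nlrc5 lay above the control in all 3, by 1.59, 1.11 and 0.65 and by 3.30, 3.91 and 2.76 in WT, KO1 and Het.

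**Figure D4:**
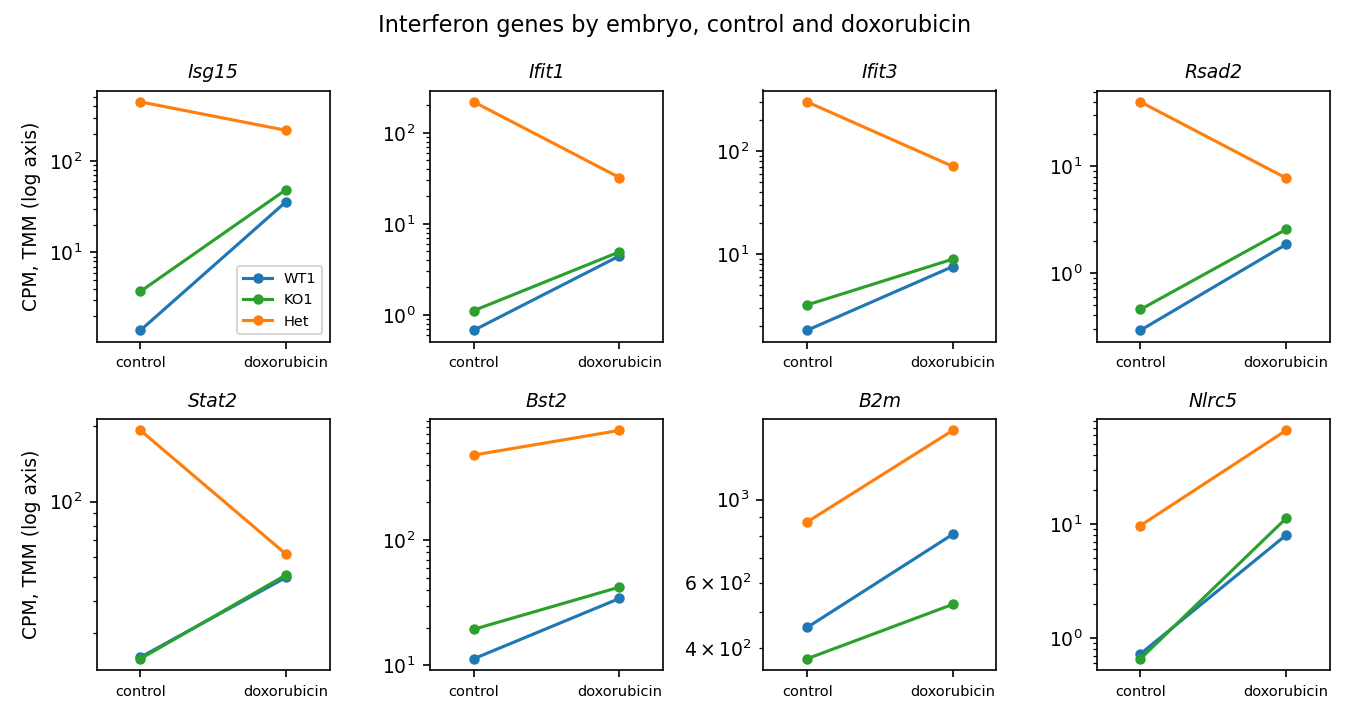
Scaled CPM (log axis) of 8 interferon genes in the control and the doxorubicin library of WT, KO1 and Het, with 1 point per library and a line per embryo. For Isg15, Ifit1, Ifit3, Rsad2 and Stat2 the lines of WT and KO1 run upward and that of Het downward, and for Nlrc5 and Bst2 all 3 run upward.

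Promoters of genes that were high together are shown to let their shared letters be seen. They come from RefSeq promoters on GRCm38.p6, which run from 250 bases before to 50 bases after the start of a gene, and were searched on both strands for GAAANNGAA, the core of the interferon-stimulated response element, TTCNNNGAA, a STAT site, and GGGANTTTC, an NF-kB site; the motifs may overlap. Where several promoters were listed for a gene, only the first of them was searched. Of all 27025 promoters, 1 per gene symbol, 8.57% held the response element core, 8.47% the STAT letters and 1.15% the NF-kB letters. Only 78.8% of the genes with enough counts matched a promoter (11233 of 14258), and 125 of the 159 interferon genes called higher, so a comparison of shares between gene sets is void, as too few genes have a value, and none is given. A match describes letters only. The first 4 stretches, of an interferon-induced modifier, an RNA-binding protein, viperin and tetherin, carry the response element core in capitals: Isg15 chr4:156200830-156200929 on the minus strand, Ifit1 chr19:34640760-34640859 on the plus strand, Rsad2 chr12:26456517-26456616 on the minus strand and Bst2 chr8:71537542-71537641 on the minus strand. The last pair, chemokines for neutrophils, carries the NF-kB letters in capitals: Cxcl1 chr5:90891129-90891228 on the plus strand and Cxcl2 chr5:90903757-90903856 on the plus strand.
Isg15: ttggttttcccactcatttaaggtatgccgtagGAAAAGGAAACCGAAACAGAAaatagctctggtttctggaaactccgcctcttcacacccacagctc
Ifit1: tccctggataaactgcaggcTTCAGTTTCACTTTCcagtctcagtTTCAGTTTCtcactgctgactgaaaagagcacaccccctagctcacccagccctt
Rsad2: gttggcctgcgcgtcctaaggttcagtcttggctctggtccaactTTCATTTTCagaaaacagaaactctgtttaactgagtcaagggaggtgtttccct
Bst2: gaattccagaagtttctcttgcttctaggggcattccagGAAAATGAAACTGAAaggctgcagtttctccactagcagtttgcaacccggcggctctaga
Cxcl1: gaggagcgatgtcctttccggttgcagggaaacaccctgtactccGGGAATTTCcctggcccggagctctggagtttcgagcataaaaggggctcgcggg
Cxcl2: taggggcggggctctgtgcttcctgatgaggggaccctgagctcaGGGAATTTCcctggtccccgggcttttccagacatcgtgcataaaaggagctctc

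The Isg15 and Ifit1 promoters held 3 matches of the response element core each, Bst2 2 and Rsad2 1. Irf7, Irf9 and Oasl2 had no match of these letters in their windows, although they were higher in both high libraries. Of the genes with the largest differences outside the list, Saa3 and Ccl3 held 1 match of the core each, and Slc13a3, Marco, Il1b and Lcn2 none of the 3 motifs. The windows of Irf9 and Lcn2 lay inside the annotated span of the gene, so bases before that span were not searched.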

How the data were processed

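RNA-Seq read counts per gene were used as deposited in 1 table of 24062 genes and 10 columns. Per the submitters' processing notes, reads were aligned to mm10 with HISAT2 2.1.0 and counted with HTSeq, and the authors' count values are whole numbers without normalization. Libraries were assigned to genotype, embryo and treatment by their titles, and identical columns were counted once. In R 4.3.3, counts were scaled by TMM with edgeR 4.0.16, separately for the 5 untreated libraries, the 4 distinct doxorubicin libraries and the 6 libraries of the embryos tested for treatment. The untreated states were described without a test. The doxorubicin libraries were tested with edgeR's quasi-likelihood F test after filterByExpr, with Benjamini-Hochberg FDRs over all genes kept and a threshold of 0.01. Alternatives were DESeq2 1.42.0, other scalings, filters and thresholds, and each library left out.

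Control and doxorubicin libraries were paired by the embryo in the titles. As a check, each library's deviation from its treatment mean was correlated between the libraries of an embryo over 14863 genes, with a Pearson correlation of 0.609 in WT, 0.741 in Het and 0.671 in KO1, so the embryo was kept as a block.

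The interferon genes were sorted by role, and 38 further lists covered inflammation, matrix, cell cycle, stress, metabolism and markers of other cell types. The members and lists were chosen with earlier results of these data known. Genes named were Isg15, Sall2, Rn45s and the sex-linked genes, every interferon, receptor, JAK-STAT and IRF factor with counts, up to 4 members of each list or role with the largest difference and the member with the most counts, the 15 genes outside the interferon list with the largest difference in each direction, and the 8 with the largest rise and fall in each test. Some genes named by this rule are not reported here. Named after their values were seen were Tmem173, Il1rn, Cxcl14, Cx3cl1, C1rl, Ptx3, Dcn, Col7a1, Col5a3, Erg, Myf5, Pax7, Cyr61, Ier3, Ankrd37, Adm, P4ha2, Slc2a1, Sdha, Atp5a1, Tnfrsf10b, Gsta4, Nqo1, Hmox1, Hoxb3, Hoxb4, Sox10, Erbb3, Comp, Hapln1, Sox9, Mavs, Samhd1, Ly6e, Tor1aip1, Shisa5, Rbm43, Tap1, Lap3 and Ifi30.

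The strand setting of HTSeq is not given, so values of overlapping and near-identical genes are uncertain. Each culture has 1 library per treatment, so differences between embryos and between cultures of an embryo cannot be told apart. Floors cover counting error alone, not variation between cultures. Gene levels were compared between libraries and not between genes.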

Additional observations from a re-analysis of the deposited data

Results flagged for a closer look

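The change of Isg15 with doxorubicin had opposite signs in embryos of different state. It was -1.03 on the log2 scale in Het, whose control was high, while WT and KO1, whose controls were low, lay above their controls. In 25 interferon genes Het was likewise at least 2-fold below its control while WT and KO1 were at least 2-fold above theirs. These stood out because every library pair of one state moved one way and every pair of the other state the opposite way. The states were chosen by Isg15 in the same controls, and the 25 genes by their levels in them, so a high start in Het and a low start in WT and KO1 is built into these changes. The high state has 1 pair here, and the difference between the states was not tested.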

How the results depend on the processing

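Without treatment, column totals in place of TMM gave 4792 genes higher and 598 lower, a minimum difference of 2 gave 1012 and 216, and no minimum gave 5824 and 5391. With 1 library left out, between 2928 and 3049 genes were higher, between 1619 and 1822 lower, and between 156 and 161 interferon genes higher.

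For Het against the other doxorubicin libraries, an FDR of 0.05 gave 3758 genes higher and 3818 lower, with 20 interferon genes lower. With 1 library left out, the genes higher in Het ranged from 2264 to 3472, the genes lower from 2065 (without WT) to 3653 (without KO1), the interferon genes higher from 92 to 126 and those lower from 8 (without WT) to 18 (without KO1).

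For doxorubicin against control, DESeq2 gave 49 interferon genes that rose, and an FDR of 0.05 gave 51 that rose and 17 that fell. KO2 as a further pair gave 48 and 13, with the library labelled KO2 and KO3 taken as its treated one. Without the embryo as a block, edgeR found 1542 genes that rose and 1251 that fell, with 6 interferon genes that rose and 0 that fell, where 8 fell at an unadjusted p under 0.05 and 4 by DESeq2 without the block. With 1 embryo left out, genes that rose ranged from 2469 (without WT) to 5249 (without Het), genes that fell from 1587 (without WT) to 4849 (without Het), interferon genes that rose from 19 (without WT) to 125 (without Het) and those that fell from 4 (without WT) to 16 (without Het). The sign turned without Het for Iigp1, from -0.98 to 1.45 over the embryos left out, Irgm1, from -0.46 to 0.44, and Prc1, from -0.37 to 0.54.

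Of the other values of single genes, 361 untreated ones moved by more than the spread within the states and 3179 did not. In the comparison of Het, 83 gene results passed the threshold only under the alternative, 36 only under the settings used, and 1937 were alike. For doxorubicin against control these were 191, 97 and 1808. The cause of these differences was not tested.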
